A study of Rattus norvegicus with 8 samples.

Results

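Creatine kinases, adenylate kinases and AMP-activated protein kinase (AMPK) were followed in 8 isolated rat hearts through every probe set whose only gene symbol in the platform annotation was Ckm, Ckb, Ckmt2, Ak1, Ak3, Ak4, Prkaa1, Prkaa2 or Prkag2. Of the 9 genes, 8 were matched, by 15 of the 31042 probe sets tested, and Ak1, the cytosolic adenylate kinase, is not analysed here. Hearts of male Wistar rats of about 300 g, whose age is not given in the sources used here, were perfused for 2 h through the aorta in a non-recirculating Langendorff apparatus, with 2 µM doxorubicin (n = 4) or without drug (n = 4). Doxorubicin is an anthracycline, an anticancer drug that intercalates into DNA and poisons topoisomerase II. All hearts were excised and perfused for the same time. Each was hybridized to its own array, and by the labels the 4 hearts of a group are biological replicates. The comparison asks whether transcripts of the heart's energy buffering and energy sensing systems differed after this short exposure.

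A heart cell spends ATP at the myofibrils and remakes it in the mitochondria. Creatine kinase moves a phosphate between ATP and creatine, and so buffers ATP and links both sites. Adenylate kinase turns a pair of ADP molecules into ATP and AMP, and AMP that builds up is bound by the gamma subunit of AMPK, whose catalytic alpha subunit then phosphorylates enzymes that save or supply ATP. Human mutations of PRKAG2 cause a cardiomyopathy with glycogen storage and ventricular pre-excitation.

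Ak3 was higher in doxorubicin hearts, by 19.8% (95% interval 9.7% to 30.8%), and it was the 1 member with a probe set past the test. Ckm, Ckb, Ckmt2, Ak4, Prkaa1, Prkaa2 and Prkag2 did not pass by any probe set. In limma's test on log2 intensity, with Benjamini-Hochberg adjustment over all 31042 probe sets and a threshold of 0.05, 1 of the 15 member probe sets was called, and it was higher. Over all probe sets, 0.689% were called higher, 1.52% lower and 2.21% in either direction. At an unadjusted p under 0.05, 2 of the 15 passed, both of them Ak3 and both higher. Counted by genes, with 1 probe set each, this was 1 of the 8 matched members. Of all 14217 genes, by 1 probe set each, 1375 were higher and 1005 lower at this level. The median difference, doxorubicin minus control, was 0.03 log2 for the 15 probe sets and -0.0019 log2 for all probe sets, and 11 of the 15 had a positive sign. The median size of the difference, sign left aside, was 0.05 log2 for the members and 0.07 log2 for all probe sets.

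The arrays carried heart RNA by their markers. All 6 measured cardiomyocyte markers were bright, with Myh6, the alpha myosin heavy chain, at 14.1 log2 in doxorubicin and 14.04 log2 in control hearts, and none of the marker genes of 9 cell type lists passed the test. The lists that varied most between single hearts were atrial and fat markers. The summed linear intensity of 4 atrial markers was 1441 to 20375 in doxorubicin and 1214 to 10284 in control hearts, and that of 5 adipocyte markers was 129 to 1300 in doxorubicin and 136 to 297 in control hearts. Doxorubicin heart 4 held the highest sum of both. It also held the highest fibroblast (15734), macrophage (687), skeletal muscle (2873) and nerve (129) marker sums. The skeletal muscle sum came mostly from Myh1, at 11.35 log2 in doxorubicin hearts, where Myh4, Tnnt3 and Actn3 read 3.64, 4.14 and 4.0 log2. Doxorubicin heart 2 came close to that sum, at 2772. Of the 5 listed nerve genes, 2 were measured. In whole hearts, fewer cells of a type and less RNA per cell cannot be told apart.

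**Figure D1:**
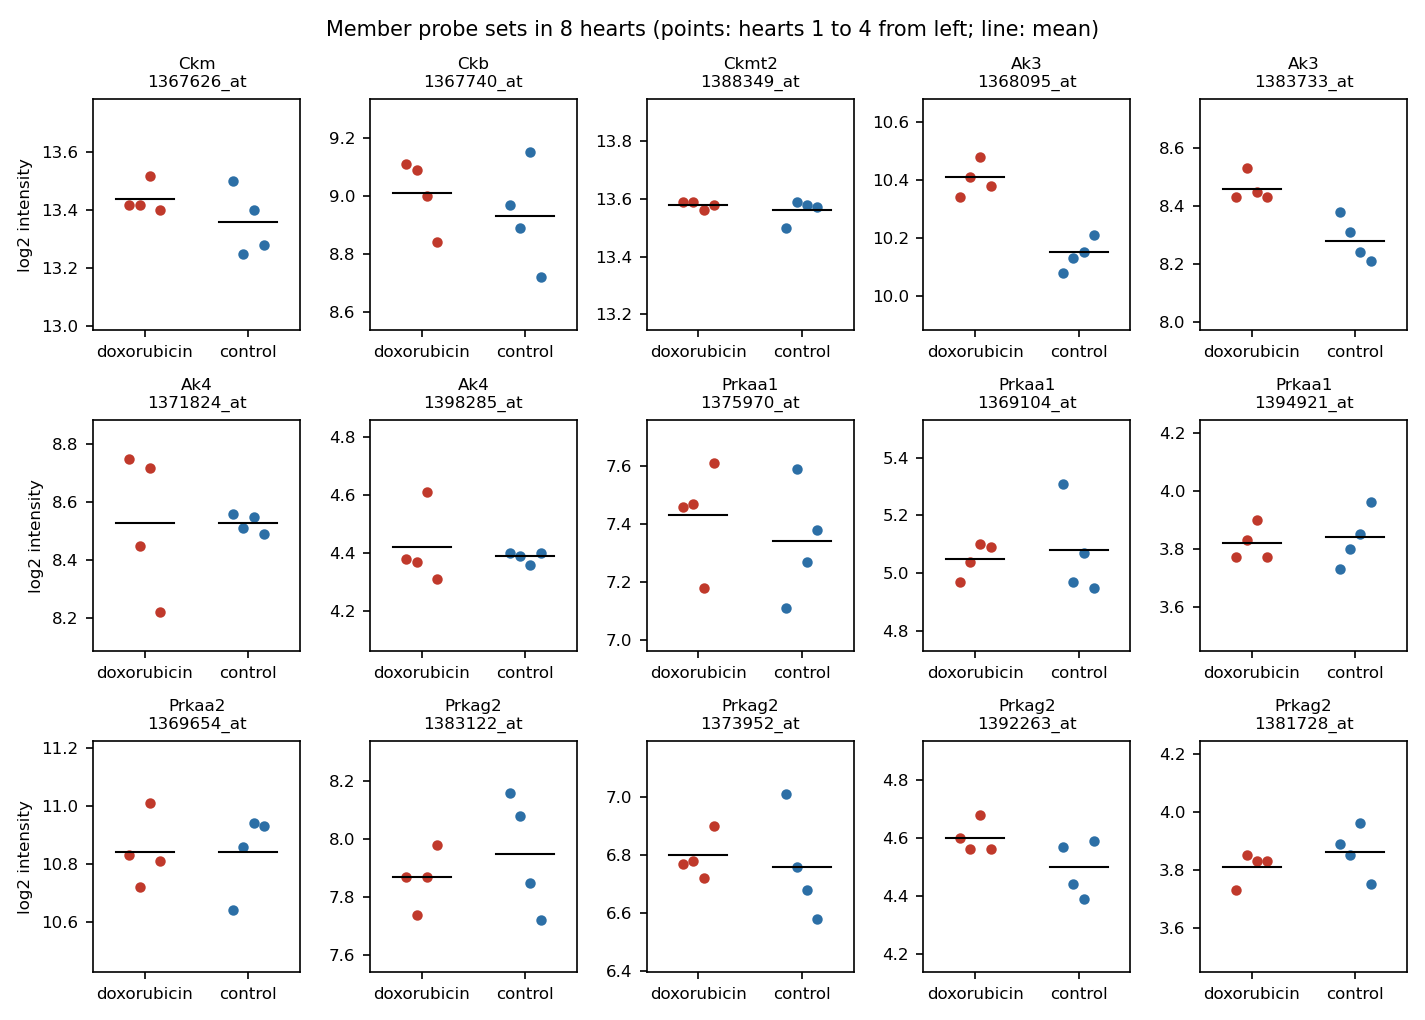
Log2 intensity of the 15 member probe sets in 4 doxorubicin (left) and 4 control (right) hearts, 1 panel per probe set. Points are hearts 1 to 4 from left, lines are group means, and every vertical axis spans the same number of log2 units; the 2 Ak3 panels are those in which the groups do not overlap.

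Ak3 encodes the adenylate kinase of the mitochondrial matrix, which uses GTP to phosphorylate AMP. Its brighter probe set, 1368095_at, read 10.34, 10.41, 10.48 and 10.38 log2 in doxorubicin hearts 1 to 4, against 10.08, 10.13, 10.15 and 10.21 log2 in control hearts 1 to 4. Every doxorubicin heart lay above every control heart. The difference was 0.26 log2 (SE 0.06, n = 4 and 4, limma adjusted p = 0.0491). The second probe set, 1383733_at, read 8.43, 8.53, 8.45 and 8.43 log2 in doxorubicin hearts and 8.38, 8.31, 8.24 and 8.21 log2 in control hearts. Its groups did not overlap either, and its difference was 0.18 log2 (SE 0.06), without passing (limma adjusted p = 0.199). Among all probe sets, 4.52% had every doxorubicin heart above every control heart, against 2 of the 15 member probe sets. With both Ak3 probe sets averaged and the fit run over 14217 genes, an alternative chosen after seeing the data, the difference was 0.22 log2 (SE 0.05, limma adjusted p = 0.0424).

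This was the smallest difference, sign left aside, of the 687 probe sets called. Its p-value ranked 681st among those 687. Leaving out any one of the 8 hearts kept the difference at 0.23 to 0.28 log2 and ended the call (limma adjusted p 0.0691 to 0.129). The level of the hybridization controls, bacterial and phage transcripts added after labelling, was 9.97 to 10.13 log2 on the doxorubicin arrays and 10.21 to 10.57 log2 on the control arrays. Its part in the Ak3 difference cannot be told apart from the group by these arrays, and with it as a covariate the difference was 0.23 log2 (SE 0.10, limma adjusted p = 0.755). The Ak3 difference without doxorubicin heart 4, the heart with the highest atrial, fat, fibroblast, macrophage, skeletal muscle and nerve marker sums, was 0.27 log2.

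**Figure D2:**
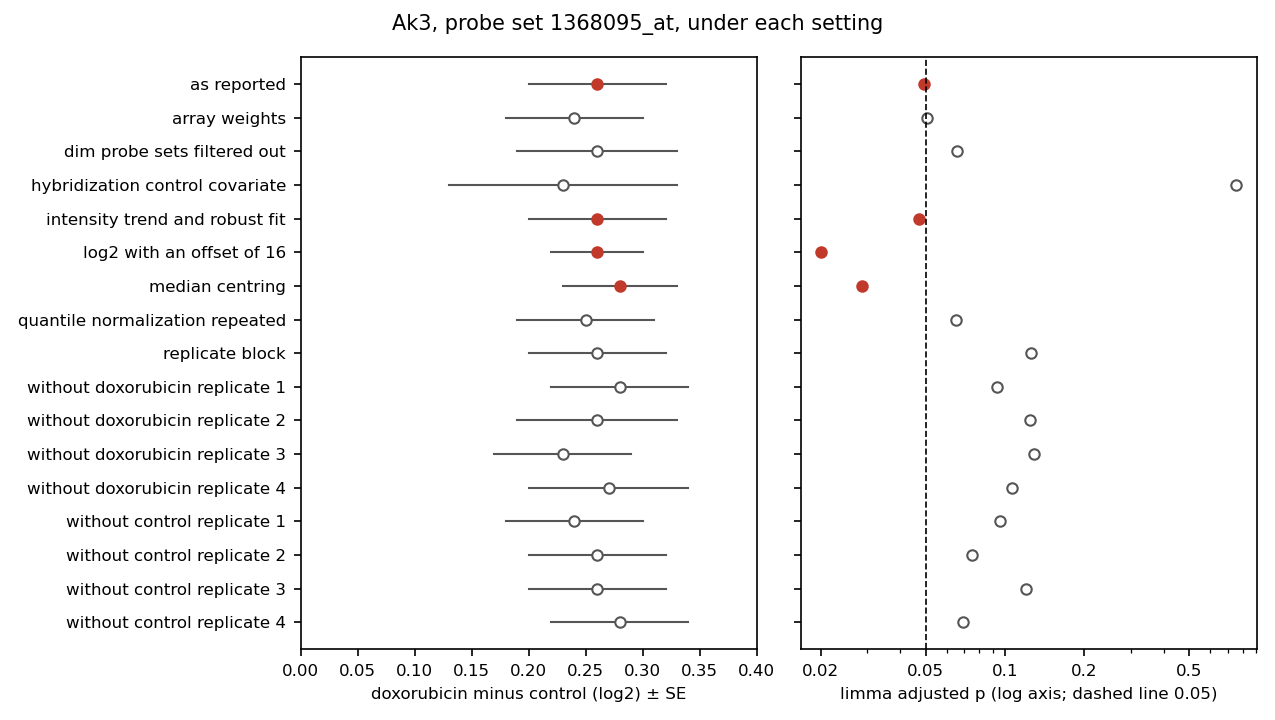
Ak3 probe set 1368095_at under each setting. Left, the doxorubicin minus control difference in log2 with its SE; right, the limma adjusted p on a log axis. The difference lies between 0.23 and 0.28 log2 in every setting drawn, and the filled points are the 4 settings, the reported one included, with an adjusted p under 0.05.

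The bases before the start of Ak3, the gene that was called, are shown with those before Ckm, the muscle creatine kinase, which was not. Both come from RefSeq on the GRCr8 build and run 5′ to 3′ over the 250 bases before the annotated start of transcription. The Ak3 window is chr1:236178184-236178433 on the minus strand and the Ckm window is chr1:88189211-88189460 on the plus strand. Capitals mark matches to GGGCGG (the GC box) and to CANNTG (the E-box, bound by basic helix-loop-helix factors such as MyoD), searched on both strands, where an E-box match reads the same class of letters on either strand. No marked match overlaps another.
Ak3: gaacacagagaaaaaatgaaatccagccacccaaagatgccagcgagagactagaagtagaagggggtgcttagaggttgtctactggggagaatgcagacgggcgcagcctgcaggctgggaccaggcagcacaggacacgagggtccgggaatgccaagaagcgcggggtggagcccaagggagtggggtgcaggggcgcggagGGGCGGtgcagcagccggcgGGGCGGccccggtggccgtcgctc
Ckm: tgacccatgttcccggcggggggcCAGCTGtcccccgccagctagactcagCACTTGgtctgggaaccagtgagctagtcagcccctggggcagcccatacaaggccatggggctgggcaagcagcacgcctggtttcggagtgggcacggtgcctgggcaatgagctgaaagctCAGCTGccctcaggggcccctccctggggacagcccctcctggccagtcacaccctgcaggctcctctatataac
The Ak3 window held 2 GC boxes, no E-box and 16 CpG dinucleotides, and the Ckm window held 3 E-boxes, no GC box and 6 CpG dinucleotides. Of all 33469 RefSeq windows of this length, 65.5% held an E-box and 30.5% a GC box, and the median number of CpG dinucleotides was 5.

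All 8 measured members matched a window, Prkag2 by 2 annotated starts. The windows of the muscle isoforms Ckm and Ckmt2 held 6 and 4 CpG dinucleotides, whereas that of the brain isoform Ckb held 25. The Ak4 window held 20, that of Prkaa1 45, that of Prkaa2 33 and those of Prkag2 33 and 42. GC boxes were found before Ak4 (2), Prkaa1 (6), Prkaa2 (1), Ckmt2 (1) and both starts of Prkag2 (3 and 1). The string AAGGTCA, a core of the sites of estrogen-related receptors, was in none of these windows and in 3.99% of all windows. These matches describe letters and say nothing of binding.

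The creatine kinases were read by 1 probe set each, and none passed. Ckm, the muscle cytosolic isoform, read 13.42, 13.42, 13.52 and 13.40 log2 in doxorubicin hearts, against 13.50, 13.25, 13.40 and 13.28 log2 in control hearts. Control heart 1 lay as high as the doxorubicin hearts and the groups overlapped. The Ckm difference was 0.08 log2 (SE 0.07, limma adjusted p = 0.694), and its 95% interval ran from a 4.79% lower to a 17.6% higher level.

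Ckmt2 encodes the sarcomeric mitochondrial isoform, which lies between the mitochondrial membranes. It was the most even of the members, at 13.59, 13.59, 13.56 and 13.58 log2 in doxorubicin hearts and 13.50, 13.59, 13.58 and 13.57 log2 in control hearts. The 8 hearts spanned 0.10 log2, and control heart 1 was the lowest. The difference was 0.02 log2 (SE 0.05, limma adjusted p = 0.925), with a 95% interval of a 6.21% lower to a 9.72% higher level, the narrowest of the 15.

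Ckb, the brain-type cytosolic isoform, which in heart forms the MB enzyme with Ckm, read 9.11, 9.09, 9.0 and 8.84 log2 in doxorubicin hearts and 8.97, 8.89, 9.15 and 8.72 log2 in control hearts. Heart 4 was the lowest of each group, and the control hearts spanned the whole range of 0.43 log2. The Ckb difference was 0.08 log2 (SE 0.10, limma adjusted p = 0.822, 95% interval -0.14 to 0.30 log2). The gene's probe set did not pass, and the interval allows a level up to 22.8% higher or 9.26% lower. With the hybridization control covariate the Ckb difference was 0.36 log2 (SE 0.12, limma adjusted p = 0.602), above that interval.

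Ak4 encodes a second matrix protein of the adenylate kinase family, related to Ak3. Its brighter probe set, 1371824_at, read 8.75, 8.45, 8.72 and 8.22 log2 in doxorubicin hearts, against 8.56, 8.51, 8.55 and 8.49 log2 in control hearts. The means were alike, at 8.53 log2 in each group, but the doxorubicin hearts lay both above and below the 4 control hearts, with an SD of 0.25 log2 in doxorubicin and 0.03 log2 in control hearts. The difference was 0.01 log2 (SE 0.11, limma adjusted p = 0.991), and it was 0.11 log2 without doxorubicin heart 4, the lowest. That heart also held the highest atrial, fat, fibroblast, macrophage, skeletal muscle and nerve marker sums, whose part in its Ak4 level was not tested. The second probe set, 1398285_at, was close to the dimmest 25% of probe sets, which lie under 4.16 log2, and read 4.31 to 4.61 log2 in doxorubicin and 4.36 to 4.40 log2 in control hearts. Its difference was 0.03 log2 (SE 0.07), again with heart 4 the lowest of the doxorubicin hearts.

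The catalytic subunits of AMPK did not pass either. Prkaa2 encodes alpha2, the main catalytic subunit of heart and skeletal muscle, and read 10.83, 10.72, 11.01 and 10.81 log2 in doxorubicin hearts, against 10.64, 10.86, 10.94 and 10.93 log2 in control hearts. The groups overlapped over most of their ranges. The mean was 10.84 log2 in each group, and the 95% interval of the difference ran from a 12.6% lower to a 14.7% higher level (limma adjusted p = 0.996).

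Prkaa1, which encodes the more widely expressed alpha1, had 3 probe sets. The brightest, 1375970_at, read 7.46, 7.47, 7.18 and 7.61 log2 in doxorubicin hearts and 7.11, 7.59, 7.27 and 7.38 log2 in control hearts, a difference of 0.09 log2 (SE 0.12, limma adjusted p = 0.822). Its hearts were mixed across groups and spanned 0.50 log2. The others read 4.97 to 5.10 log2 in doxorubicin and 4.95 to 5.31 log2 in control hearts (1369104_at), and 3.77 to 3.90 log2 in doxorubicin and 3.73 to 3.96 log2 in control hearts (1394921_at). Both differences were -0.02 log2, and the last probe set lay under the 4.16 log2 level.

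Prkag2, the AMP-binding gamma2 subunit, had 4 probe sets with differences of both signs. The brightest, 1383122_at, read 7.87, 7.74, 7.87 and 7.98 log2 in doxorubicin hearts and 8.16, 8.08, 7.85 and 7.72 log2 in control hearts, a difference of -0.09 log2 (SE 0.10, limma adjusted p = 0.802). The next, 1373952_at, read 6.77, 6.78, 6.72 and 6.90 log2 in doxorubicin hearts and 7.01, 6.76, 6.68 and 6.58 log2 in control hearts, a difference of 0.04 log2 (SE 0.09). On both, control heart 1 was the highest and control heart 4 the lowest of all hearts, so the control group enclosed the doxorubicin group. The dimmer 1392263_at differed by 0.10 log2 (SE 0.06) and 1381728_at, under the 4.16 log2 level, by -0.05 log2 (SE 0.06).

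**Figure D3:**
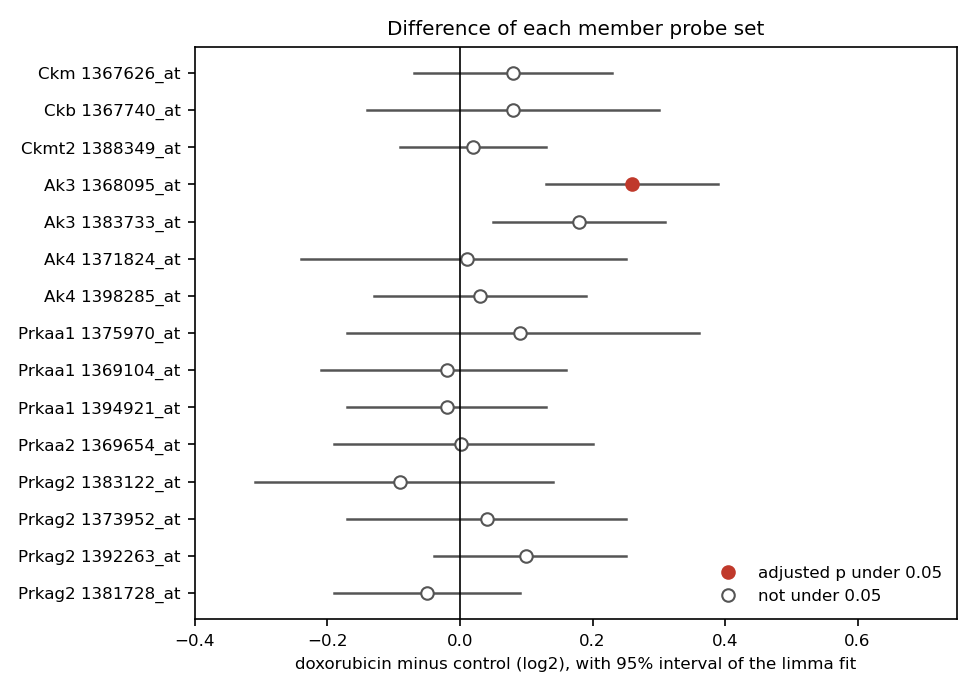
Doxorubicin minus control difference in log2 of each member probe set, with the 95% interval of the limma fit over 4 and 4 hearts. Both Ak3 intervals lie above 0, the filled point marks the probe set with an adjusted p under 0.05, and the other 13 intervals include 0.

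Probe sets of the same gene did not all follow each other from heart to heart. Over the 8 hearts, the pair of brighter Prkag2 probe sets had a Pearson r of 0.76 (exact permutation p = 0.0263) and a Spearman rho of 0.67 (exact permutation p = 0.0831). The r was 0.73 without the 2 hearts farthest from the median of the brighter probe set of the pair, the rule used for each pair. The adjusted value over the 10 pairs compared was 0.263, so the relation failed the correction. The 2 dimmer Prkag2 probe sets ran the opposite way, with an r of -0.64 (exact permutation p = 0.0861, adjusted p = 0.287) and a rho of -0.76 (exact permutation p = 0.0368), and the r was -0.19 without the 2 farthest hearts. The Ak4 pair had an r of 0.64 (exact permutation p = 0.129) and the Prkaa1 pair of 1375970_at and 1369104_at an r of -0.66 (exact permutation p = 0.0588), which was -0.01 without the 2 farthest hearts. No r is given for Ak3, whose hearts fell into separate groups.

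Whether related isoforms differed in their change was tested on the difference of their log2 values within each heart, with a two-sided exact permutation test over the 70 ways to draw 4 of 8 hearts, whose smallest p is 0.0286. The Ak3 minus Ak4 difference was 0.26 log2 higher in doxorubicin than in control hearts (exact permutation p = 0.114, adjusted p = 0.457 over 4 pairs). The Ckm minus Ckmt2 difference was 0.06 log2 higher (exact permutation p = 0.571, adjusted p = 0.762), and the Prkaa2 minus Prkaa1 difference changed by -0.09 log2 (exact permutation p = 0.571, adjusted p = 0.762). That of Ckm minus Ckb changed by 0.00384 log2 (exact permutation p = 1, adjusted p = 1). With 4 pairs, the smallest adjusted p that a pair can reach on its own is 0.114, so the adjusted values could not pass here for a lone pair and say nothing of whether isoforms changed alike. Without doxorubicin heart 1 the Ak3 minus Ak4 difference was 0.35 log2 (exact permutation p = 0.0286), and with the probe sets of each gene averaged it was 0.20 log2 (exact permutation p = 0.0286). Each of these p-values is the smallest its draws allow, and neither was adjusted over the pairs. Without any one of the other hearts the exact permutation p was 0.143 to 0.257. With the replicate block it was 0.125, the smallest that swaps within blocks allow, so that test could not pass.

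The genes whose deviations from their group means most resembled those of a member, the best of 14216 genes over the same 8 hearts, had a Pearson r of 0.97 to 0.995. They were Dhrs11 for Ckm, Lcmt2 for Ckb, Atxn7 for Ckmt2, Mier2 for Ak3, Tmem186 for Ak4, Psma3 for Prkaa1, Rasgef1c for Prkaa2 and Rcl1 for Prkag2. The values share arrays and were picked as the highest of many, so they are a description only. None of the 8 genes passed the test, with differences of -0.32 to 0.29 log2.

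Around the members, 71 of 79 listed genes of creatine, adenine nucleotide and AMPK biology were measured, each by its brightest probe set, and the other 8 are not analysed here. Of these 71, 4 fell, none rose and 67 did not pass by limma, which is 5.63% called. By limma's p before adjustment, 6 of the 71 lay under 0.05 with a positive and 8 with a negative difference. Of all 14217 genes, 1375 lay under it with a positive and 1005 with a negative difference. Over all 14217 genes 2.97% were called, 2.17% lower and 0.802% higher. The median difference was 0.01 log2 for the 71 and 0.00634 log2 for all genes. The 4 that fell were a regulator, 2 kinases and a target around AMPK, and no gene of creatine or adenine nucleotide metabolism passed in the reported setting. When single hearts were left out, Gatm passed only without control heart 2 (0.52 log2, limma adjusted p = 0.0453, others up to 0.355). Ampd3 passed only without doxorubicin heart 4 (0.40 log2, limma adjusted p = 0.0489, others up to 0.268). Of these omissions, Ada passed only that of doxorubicin heart 3 (0.68 log2, limma adjusted p = 0.0252, others up to 0.147). With all 8 hearts kept, Ada passed with array weights, without dim probe sets and with the trend and robust fit. It also passed with probe sets averaged (limma adjusted p 0.0317 to 0.0407 over these settings).

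Fnip2 encodes a folliculin-interacting protein that binds AMPK. It read 7.04, 7.21, 6.73 and 6.95 log2 in doxorubicin hearts, against 8.25, 8.40, 8.39 and 8.14 log2 in control hearts. The groups did not overlap, and Fnip2 was 2.49-fold lower (-1.32 log2, SE 0.10, limma adjusted p = 0.000169). A further probe set of the gene also fell, by 0.53 log2 (limma adjusted p = 0.00597), while the remaining one stood at -0.06 log2. The related Fnip1 stood at -0.15 log2, with a second probe set at -0.83 log2 (limma adjusted p = 0.207), and folliculin, Flcn, at -0.01 log2, and none of these passed. The other regulators did not pass, with Strada, part of the complex that activates the kinase LKB1, at 0.18 log2.

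Of 11 measured AMPK-related kinases, most of which are switched on by LKB1 as AMPK is, 2 fell. That is 18.2%, against 2.17% of all 14217 genes called lower, and 2 genes are too few to describe the family. Nuak2 read 5.92, 5.71, 5.89 and 5.59 log2 in doxorubicin hearts and 6.88, 6.32, 6.40 and 6.49 log2 in control hearts, a difference of -0.74 log2 (SE 0.13, limma adjusted p = 0.0147). The salt-inducible kinase Sik1 read 5.85, 5.60, 5.66 and 5.51 log2 in doxorubicin hearts and 6.54, 6.35, 6.13 and 6.02 log2 in control hearts, a difference of -0.61 log2 (SE 0.12, limma adjusted p = 0.0293). Neither pair of groups overlapped. The second Sik1 probe set stood at -0.22 log2 without passing, and the Sik1 call was lost without any one of control hearts 2 and 3 and doxorubicin hearts 2, 3 and 4 (limma adjusted p up to 0.0869). Nuak2 lost it without doxorubicin heart 2 (limma adjusted p = 0.0513).

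Of 20 measured AMPK targets 1 fell, or 5.0%, against 2.17% of all 14217 genes called lower. This was Hdac5, a class IIa histone deacetylase that AMPK phosphorylates. It read 7.52, 7.42, 7.42 and 7.23 log2 in doxorubicin hearts and 8.66, 8.12, 8.14 and 8.31 log2 in control hearts, without overlap. The difference was -0.91 log2 (SE 0.12, limma adjusted p = 0.00347), while its second probe set stood at -0.17 log2. Pfkfb3, which makes the glycolytic activator fructose 2,6-bisphosphate, stood at -0.09 log2 by its brightest probe set without passing, but another of its probe sets fell, by 1.26 log2 (limma adjusted p = 0.0318), and the remaining one stood at -0.38 log2. The transcription factor Foxo3 stood at -0.46 log2 (SE 0.12, limma adjusted p = 0.101), with its other probe sets at -0.09 and -0.00398 log2. The mitochondrial coactivator Ppargc1a stood at 0.01 log2, with others at -0.31 and -0.19 log2. With the hybridization control covariate, Nuak2 (-0.74 log2, limma adjusted p = 0.456), Sik1 (-0.61 log2, limma adjusted p = 0.583) and Hdac5 (-0.96 log2, limma adjusted p = 0.194) lost the call, and Fnip2 was called (-1.19 log2, limma adjusted p = 0.0376).

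The remaining AMPK subunits had small positive differences by their brightest probe sets, none past the test. Prkab1, the beta1 scaffold subunit, read 9.28, 9.49, 9.35 and 9.26 log2 in doxorubicin hearts and 9.05, 9.05, 8.96 and 9.26 log2 in control hearts, a difference of 0.26 log2 (SE 0.08, limma adjusted p = 0.155). Control heart 4 was level with the lowest doxorubicin heart. Prkab2 stood at 0.08 log2, with a second probe set at -0.11 log2, Prkag1 at 0.07 log2 and Prkag3 at 0.14 log2. With the hybridization control covariate Prkab1 stood at 0.12 log2 and Prkag3 at -0.00204 log2.

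In adenine nucleotide metabolism, none of 14 measured genes passed by limma in the reported setting. Before adjustment, 3 had a limma p under 0.05, all with positive differences. Of all 14217 genes, 1375 did so with a positive and 1005 with a negative difference. Ada, which turns adenosine into inosine, came closest, with 5.80, 6.12, 5.49 and 5.80 log2 in doxorubicin hearts and 5.28, 5.35, 5.28 and 5.01 log2 in control hearts. Its groups did not overlap, and the difference was 0.57 log2 (SE 0.13, limma adjusted p = 0.0551). Ampd3, an AMP deaminase, stood at 0.33 log2 (SE 0.09, limma adjusted p = 0.103). Of the proteins that let ATP and ADP cross the mitochondrial membranes, Slc25a5 stood at 0.15 log2 (SE 0.06, limma adjusted p = 0.346), Vdac3 at 0.07 log2 and the main heart carrier Slc25a4 at 0.01 log2. Among creatine genes, Gatm, the first enzyme of creatine synthesis, stood at 0.42 log2 (SE 0.13, limma adjusted p = 0.156) with a second probe set at 0.03 log2, Gamt, the next enzyme, at 0.15 log2, and the creatine transporter Slc6a8 at 0.04 log2.

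**Figure D4:**
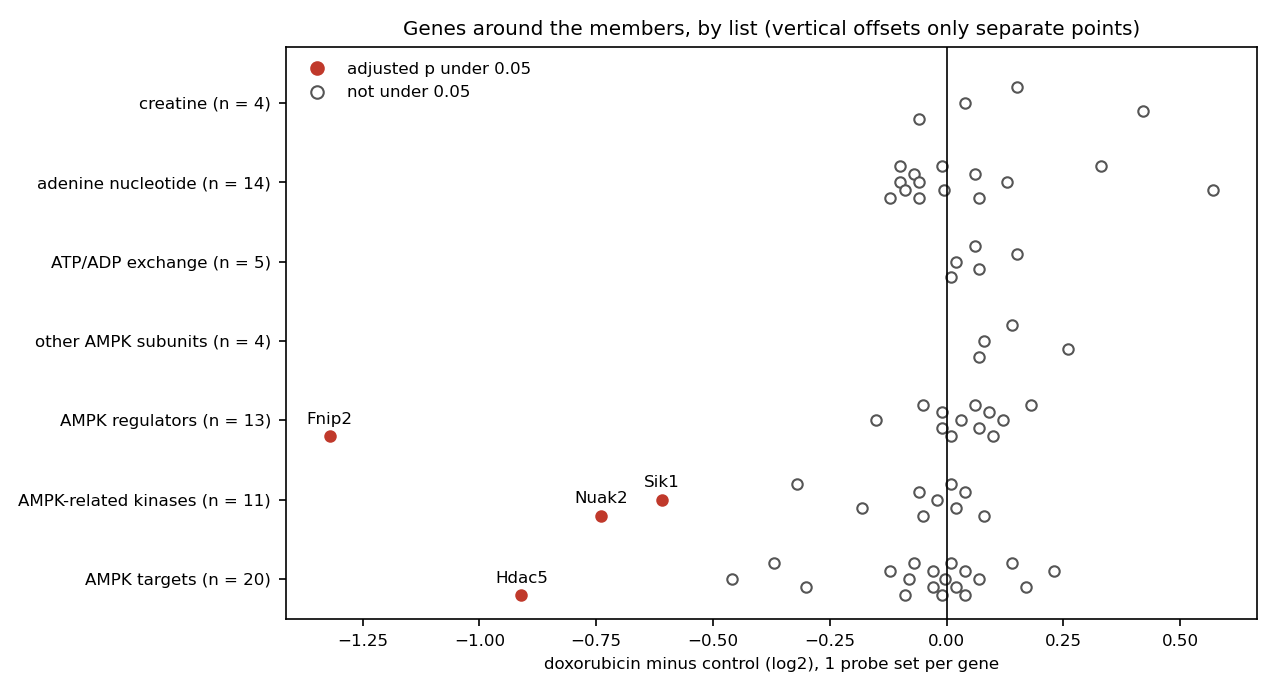
Doxorubicin minus control difference in log2 of 71 genes around the members, 1 point per gene, by list. Filled points are the 4 genes with an adjusted p under 0.05, all to the left of 0; vertical offsets only separate points.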

How the data were processed

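Total RNA of 8 hearts was labelled with biotin and hybridized to 1 array per heart, per the labels' protocols. The deposited table holds 1 intensity per probe set and array, made by the authors with RMA (background correction, normalization between arrays and summary of probes), per the submitters' processing notes. Its software, version and probe set definitions were not given in the sources used here. Values were linear (array medians 29.92 to 31.04), and log2 was taken with no offset. RMA levels the arrays' distributions, which hides any shift common to most transcripts. Arrays have no sequencing depth, and their number limits the precision.

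After 57 AFFX controls were set aside, 31042 probe sets were tested with limma 3.58.1 in R 4.3.3 (lmFit, eBayes, no covariate), tested on simulated data. Symbols came from the platform annotation, updated through gene IDs in RefSeq (GRCr8). Of the probe sets, 20826 had 1 symbol, 436 had several and 9780 had none. The 15 member probe sets were all reported. Pathway genes were named if called, or if among the 2 with the smallest p of their list. Fnip1, Flcn, Prkab2, Prkag1, Slc25a4, Slc6a8, Pfkfb3, Sik3 and Ppargc1a were added after their values were seen. Exact permutation tests ran in Python 3.11.15 and figures in matplotlib 3.10.9. Alternatives covered normalization, dim probe sets, an offset, eBayes options, array weights, a covariate, a replicate block and single hearts. The members and lists were chosen with earlier results of these data known.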

Additional observations from a re-analysis of the deposited data

Results flagged for a closer look

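In 30 groups of 4 hearts, 2 for each member probe set, the gap of the highest or lowest heart to its neighbour was compared with the range of the group, and 1 group exceeded Dixon's critical value for 4 values at the 95% level. It was Ckmt2 in control heart 1, at 13.50 log2 against 13.57 to 13.59 log2 in the other control hearts (gap over range 0.846). Chance alone flags about 1 in 20 such groups.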

How the results depend on the processing

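The call of 1 member probe set, Ak3, became 0 with array weights, without dim probe sets, with repeated quantile normalization (Ak3 limma adjusted p = 0.0505, 0.0658 and 0.0652), with the hybridization control covariate, and without any one heart (range 0 to 0). The labels do not state that replicate numbers pair the hearts. Same-numbered hearts had deviations correlated at -0.184 to 0.059, and 0 of 4 doxorubicin hearts correlated best with its own number. So few correlations of deviations from group means cannot settle whether hearts were paired. With the replicate block the count was 0 (Ak3 0.26 log2, limma adjusted p = 0.125). The 687 probe sets called became 92 with the covariate and 397 to 854 without single hearts, and fell by over 1.5 times without control heart 3 (444) and doxorubicin hearts 1 (397), 2 (452) and 3 (435). The 4 pathway genes became 1 with the covariate, 2 to 5 without single hearts (2 without doxorubicin heart 2) and 5 with probe sets averaged, where Ada and Sik3 (-0.37 log2, limma adjusted p = 0.0111) passed and Sik1 (limma adjusted p = 0.0527) did not. Averaging also moved Fnip2 to -0.64, Hdac5 to -0.54, Gatm to 0.22 and Foxo3 to -0.19 log2. The Sik1 call was lost with the offset of 16 as well (limma adjusted p = 0.0513), and Ckb moved to 0.36 log2 with the covariate. Ada also passed with array weights, without dim probe sets, with the trend and robust fit and without doxorubicin heart 3, Gatm without control heart 2 and Ampd3 without doxorubicin heart 4. The causes were not tested.

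Differences near 0 changed sign without passing. These were Ak4 1371824_at with array weights (-0.000829) and repeated quantile normalization (-0.03), Ak4 1398285_at (-0.02), Prkag2 1373952_at (-0.01), Prkag2 1381728_at (0.01) and Prkag3 (-0.00204) with the covariate, Prkaa1 1394921_at with median centring (0.000971), Prkaa2 with array weights (-0.04), and Prkag2 with probe sets averaged (0.00082). Without single hearts the ranges were -0.07 to 0.11 (Ak4 1371824_at), -0.03 to 0.07 (Ak4 1398285_at), -0.07 to 0.05 (Prkaa1 1369104_at), -0.06 to 0.02 (Prkaa1 1394921_at), -0.07 to 0.04 (Prkaa2), -0.02 to 0.12 (Prkag2 1373952_at) and, for pairs, -0.06 to 0.05 (Ckm minus Ckb), 0.16 to 0.35 (Ak3 minus Ak4), 0.02 to 0.13 (Ckm minus Ckmt2) and -0.23 to -0.02 (Prkaa2 minus Prkaa1). The Ak3 minus Ak4 difference was 0.20 with probe sets averaged (exact permutation p = 0.0286, not adjusted over the pairs). Without single hearts its exact permutation p was 0.0286 to 0.257. Of 242 member values under alternatives, 210 kept sign and side of the threshold, 13 lost the Ak3 call and 19 changed sign.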
